A study of Mus musculus with 12 samples.

Results

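The genes described here encode fibronectin and matricellular proteins of mouse lung, secreted proteins that sit in or between the structural fibres of the matrix. They are Fn1 (fibronectin), Tnc and Tnxb (tenascins C and X), Thbs1, Thbs2, Thbs3 and Thbs4 (thrombospondins), Postn (periostin) and Sparc. They were chosen by gene symbol, without use of expression values, from a list of 10 names. Of the 10 names, 9 were paired with a probe set by the platform annotation, out of 24704 genes tested, and Spp1 (osteopontin) was not analysed here. All 9 were tested, because no filter on low values was used.

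Expression was measured with Affymetrix arrays in whole lungs, in 4 groups of 3 arrays. All mice carried floxed alleles of Nfat5, a transcription factor best known for the response to osmotic stress. Knockout mice, labelled Nfat5(EC)-/-, had been given 1 mg of tamoxifen daily for 5 days to delete the gene in endothelial cells, and controls, labelled Nfat5fl/fl, had been given only the solvent miglyol. Adult males and females aged 10 to 12 weeks were treated, recovered for 2 to 3 weeks, and were kept in normoxia or hypoxia for 21 days. Effects of the deletion and of tamoxifen cannot be told apart here, the sources do not give the Cre driver, and the authors had left out lungs with contaminating tissue or a weak expression response to hypoxia. The comparisons ask how chronic hypoxia changes these matrix genes and whether loss of endothelial Nfat5 alters that change.

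Matricellular proteins are known less for bearing load than for adjusting how cells hold on to the matrix and respond to growth factors. Fibronectin is laid down early in a remodelling matrix, and other matrix proteins, collagens among them, are assembled on it. Tenascin-C is scarce in most adult tissue and returns where tissue is injured or remodelled, including the walls of lung arteries in pulmonary hypertension, whereas tenascin-X is a constitutive protein of connective tissue that spaces collagen fibrils. Thrombospondin-1 can activate latent TGF-beta and, through its receptors CD36 and CD47, restrains the growth of blood vessels and nitric oxide signalling.

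Values are log2 expression after RMA, the authors' normalization. A difference of 1 on this scale is a 2-fold change. Levels of different genes come from different probes, so a percentile of level among all genes is given only as a rough guide. Changes are limma estimates with standard errors. A change was called at a Benjamini-Hochberg adjusted p under 0.05 over all 24704 genes.

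Some arrays stood apart. The brown fat gene Ucp1 was at 4.28 or below in 10 arrays but reached 7.66 in control hypoxia 1 and 9.31 in knockout normoxia 2, where the heart hormone Nppa was 11.94. High Y-linked expression was found in 4 of 6 normoxic but 2 of 6 hypoxic arrays. Thymocyte markers stayed low, with Rag1 between 3.29 and 3.62, while the lung markers Sftpc (surfactant protein C) and Cdh5 (VE-cadherin, of endothelium) were at 13.4 or above and 11.9 or above in all 12 arrays. Nfat5 itself averaged 9.11 ± 0.25 (SD, n = 3) in control normoxia and 8.67 ± 0.11 in knockout normoxia, with a difference of -0.44 ± 0.15 (adjusted p = 0.62), and in hypoxia the difference was -0.08 ± 0.15 (adjusted p = 0.97). Nfat5 fell by 0.68 with hypoxia in control lungs (adjusted p = 0.0158). Other lung cells keep the gene and the probe positions are not known here, so Nfat5 RNA of whole lung checks the labels only weakly.

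Promoter windows of the genes that changed with hypoxia are shown first, since the results turn on those genes. Of the 9 genes, 7 had an entry in the RefSeq promoter table (GRCm38.p6), which gives 250 bases before and 50 after the annotated start; Fn1 and Thbs1 had none. In that build Fn1 lies at chr1:71585473-71653280 and Thbs1 at chr2:118111876-118127133. The windows shown are Tnc (chr4:64046966-64047265, minus strand), Thbs2 (chr17:14694213-14694512, minus strand) and Sparc (chr11:55420031-55420330, minus strand), which were higher in hypoxia, and Postn (chr3:54359017-54359316, plus strand), which was not called. Capitals mark matches, on either strand, to any of 8 motifs searched. These were the hypoxia response cores ACGTG and GCGTG, the TATA box TATAAA, the AP-1 site TGANTCA, the TEAD site GGAATG, the Smad element CAGACA, the NFAT core TGGAAA and the CArG box.
Tnc: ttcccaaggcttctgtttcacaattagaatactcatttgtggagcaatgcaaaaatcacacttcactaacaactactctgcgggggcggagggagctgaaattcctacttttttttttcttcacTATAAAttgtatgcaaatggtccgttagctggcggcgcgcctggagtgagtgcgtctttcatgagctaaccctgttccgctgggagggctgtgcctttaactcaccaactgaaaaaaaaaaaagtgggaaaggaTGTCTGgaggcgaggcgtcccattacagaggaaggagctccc
Thbs2: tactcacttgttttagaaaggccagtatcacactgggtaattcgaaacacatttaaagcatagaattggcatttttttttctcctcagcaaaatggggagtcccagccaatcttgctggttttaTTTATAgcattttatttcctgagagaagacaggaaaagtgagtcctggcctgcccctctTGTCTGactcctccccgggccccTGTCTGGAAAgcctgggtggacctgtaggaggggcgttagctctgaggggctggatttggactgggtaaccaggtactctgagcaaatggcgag
Sparc: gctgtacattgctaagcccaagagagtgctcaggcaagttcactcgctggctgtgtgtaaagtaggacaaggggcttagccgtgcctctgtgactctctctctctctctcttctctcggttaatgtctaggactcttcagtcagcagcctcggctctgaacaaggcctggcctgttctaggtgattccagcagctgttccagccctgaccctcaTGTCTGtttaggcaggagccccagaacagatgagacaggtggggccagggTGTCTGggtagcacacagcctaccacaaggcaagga
Postn: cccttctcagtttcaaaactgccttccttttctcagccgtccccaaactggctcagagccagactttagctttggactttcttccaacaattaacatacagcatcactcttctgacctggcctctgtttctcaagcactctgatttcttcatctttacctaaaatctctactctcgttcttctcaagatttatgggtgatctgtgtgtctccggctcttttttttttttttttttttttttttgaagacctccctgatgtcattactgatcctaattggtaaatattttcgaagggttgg
The Smad element was present once in Tnc, 2 times in Thbs2 and 2 times in Sparc, and not in Postn. Over the 7 genes with a window, 4 held it, against 21.1% of the 27025 promoter windows of all genes. The fourth was Thbs4, which was not called with hypoxia. In Thbs2 one of these matches overlaps the single NFAT core. A TATA box match was found in Tnc and Thbs2, against 14.2% of all windows. None of these 4 windows held either hypoxia response core, which 19.6% (ACGTG) and 32.5% (GCGTG) of all windows do. Short matches of this kind describe the letters only.

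In control lungs, 4 of the 9 genes rose with hypoxia and none fell. Tnc rose most, 3.62-fold, followed by Fn1 (1.85-fold), Thbs2 (1.41-fold) and Sparc (1.34-fold). The other 5, Tnxb, Thbs1, Thbs3, Thbs4 and Postn, were not called. Of all genes, 11.5% were called in this comparison and 5.36% were called higher, and the 4 genes were also those whose groups did not overlap, which 14% of all genes showed in the higher direction. The median change of the 9 genes was 0.20, against 0.01 for all genes. In knockout lungs 1 of the 9, Fn1, was called, where 1.14% of all genes were called and 0.64% were called higher. Averaged over both genotypes the 4 genes of control lungs were called higher again, with 14.7% of all genes called and 7.27% called higher. Without both arrays high in Ucp1 these counts were 3 in control lungs, 0 in knockout lungs and 3 over both, among 2834, 51 and 2597 of all genes. The authors had left out lungs with a weak expression response to hypoxia, so these counts and sizes apply to lungs selected on that response.

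**Figure D1:**
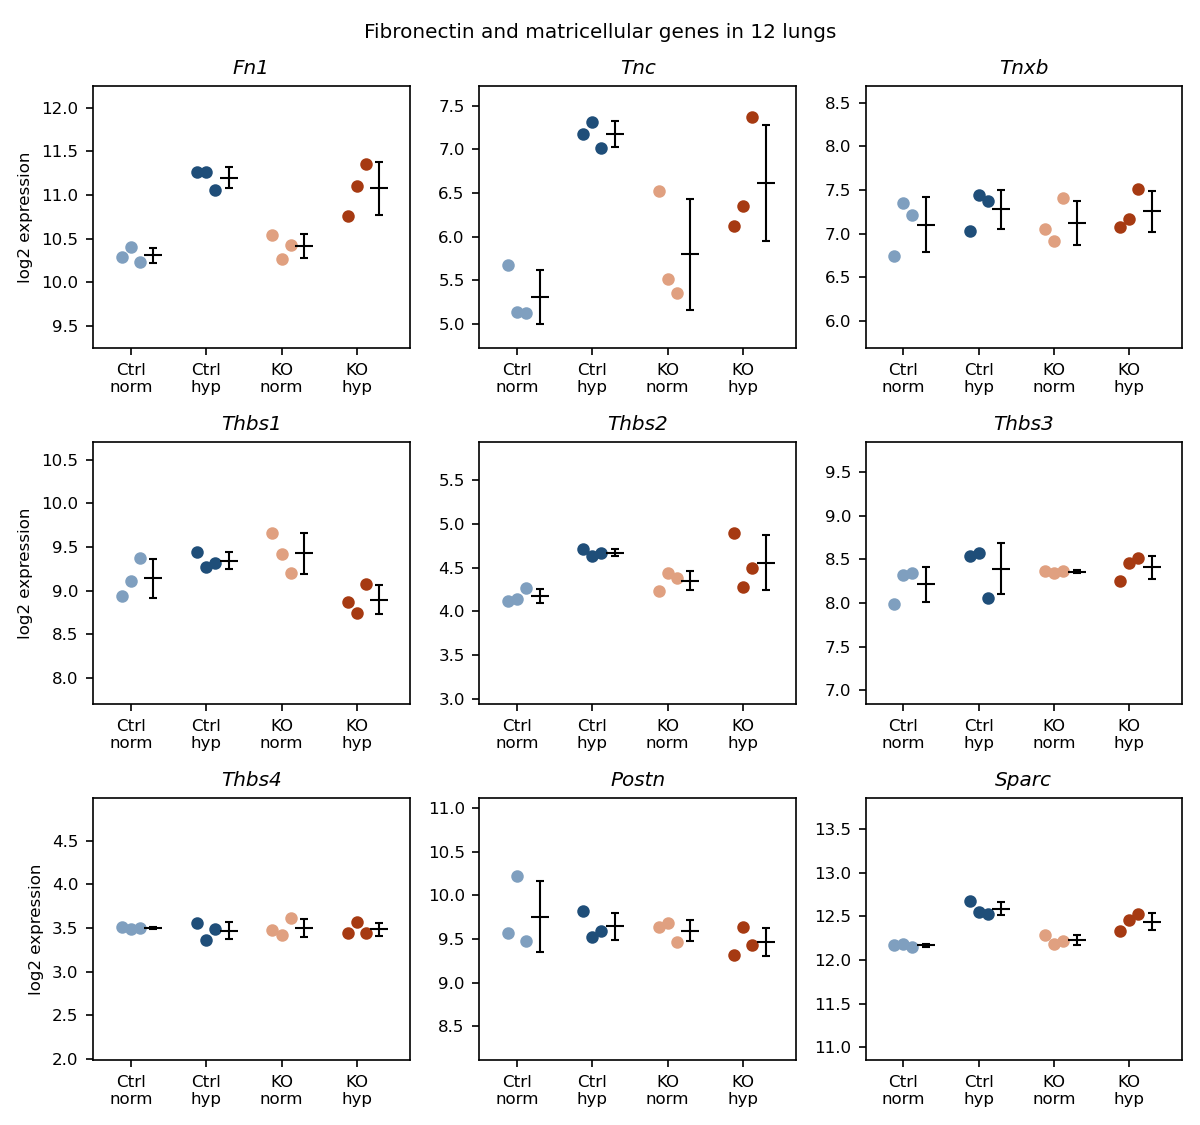
Log2 expression of the 9 genes in each of 12 arrays (points), with the group mean and SD beside them. Every panel spans 3 log2 units, so heights can be compared between panels; Ctrl is control, KO is endothelial Nfat5 knockout, norm is normoxia and hyp is hypoxia. Tnc, Fn1, Thbs2 and Sparc of the control hypoxia group lie above all control normoxia points.

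Fibronectin was the only one of the 9 genes called in both genotypes. In control normoxia Fn1 was 10.29, 10.40 and 10.24, and in control hypoxia 11.27, 11.27 and 11.06. In knockout normoxia it was 10.54, 10.27 and 10.43, and in knockout hypoxia 10.76, 11.10 and 11.36. The knockout groups did not overlap either, which 10.9% of all genes showed in this direction, and all 6 hypoxic arrays lay above all 6 normoxic ones, which 3.49% of all genes showed in this direction. The log2 change was 0.89 ± 0.14 in control (SE; adjusted p = 0.00534) and 0.66 ± 0.14 in knockout lungs (adjusted p = 0.0463). The control call held without any 1 of the 12 arrays, whereas the knockout call held only without knockout hypoxia 2, with changes between 0.52 and 0.82 over the 12 fits. It was also lost without both arrays high in Ucp1 (0.59, adjusted p = 0.21). The difference between the responses was -0.23 ± 0.19 (adjusted p = 0.78), with a 95% interval from -0.65 to 0.20.

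Sparc, a collagen-binding glycoprotein, had the tightest values of the genes that rose. It was 12.17, 12.18 and 12.15 in control normoxia and 12.67, 12.55 and 12.53 in control hypoxia. Knockout lungs gave 12.29, 12.18 and 12.21 in normoxia and 12.33, 12.45 and 12.53 in hypoxia. As for Fn1, the 6 hypoxic and 6 normoxic arrays did not overlap. The SD within groups was 0.07, at percentile 5.51 of all genes. Its change was 0.42 ± 0.08 in control (adjusted p = 0.00933) and 0.21 ± 0.08 in knockout lungs (adjusted p = 0.26), so only the control change was called. The difference between them was -0.21 ± 0.11 (adjusted p = 0.65).

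Tenascin-C gave the largest change and the widest spread. Tnc was 5.67, 5.14 and 5.13 in control normoxia and 7.17, 7.32 and 7.02 in control hypoxia. In knockout normoxia it was 6.52, 5.51 and 5.35, and in knockout hypoxia 6.12, 6.35 and 7.37. The control groups lay far apart, whereas in knockout lungs one normoxic array (replicate 1) exceeded 2 of the 3 hypoxic ones. The change was 1.86 ± 0.34 in control (adjusted p = 0.0087) and 0.82 ± 0.34 in knockout lungs (adjusted p = 0.33). The difference between them was -1.04 ± 0.48 (adjusted p = 0.61), with a 95% interval from -2.08 to 0.01, so a difference between genotypes was not shown.

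The spread of Tnc within groups (SD 0.49) was at percentile 98.4 of all genes, and it moved with the Y-linked genes. In each of the 4 groups every array low in Y-linked genes had more Tnc than every array high in them. This order was seen after the values were known, it held for 1 of the 9 genes, and 1.04% of all genes showed it in the same direction. Among control arrays low in Y-linked genes Tnc was 5.67 in normoxia (1 array) and 7.24 in hypoxia (2 arrays), a difference of 1.57. Among those high in them it was 5.13 (2 arrays) and 7.02 (1 array), a difference of 1.88. The same differences in knockout lungs were 0.34 and 0.69. With the Y-linked mean as a covariate the control change was 1.54 ± 0.25 (adjusted p = 0.0131) and the knockout change 0.51 ± 0.25 (adjusted p = 0.48).

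Tnxb, the constitutive tenascin, ranged from 6.74 to 7.35 in normoxia and from 7.03 to 7.45 in hypoxia in control lungs, and from 6.92 to 7.41 and 7.08 to 7.52 in knockout lungs. These ranges overlapped throughout. Its change with hypoxia was 0.18 ± 0.19 in control and 0.13 ± 0.19 in knockout lungs (adjusted p = 0.59 and 0.87). The 95% interval in control lungs was -0.23 to 0.59, and that of Tnc was 1.12 to 2.60.

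**Figure D2:**
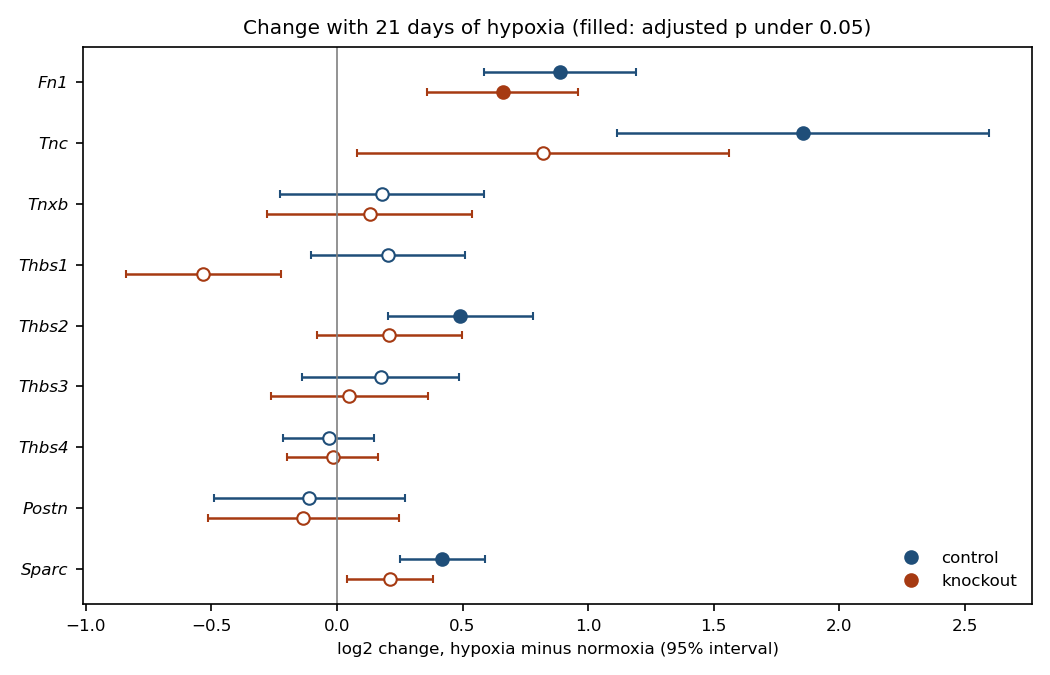
Log2 change with 21 days of hypoxia for each gene in control (blue) and knockout (red) lungs, with limma 95% intervals; filled points had an adjusted p under 0.05. In control lungs Tnc, Fn1, Thbs2 and Sparc are filled, in knockout lungs Fn1 alone, and Thbs1 lies at 0.20 in control and -0.53 in knockout lungs, both as open points.

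Thbs2, a thrombospondin of fibroblasts and smooth muscle known to limit vessel growth, rose from a low level. Control lungs gave 4.12, 4.14 and 4.27 in normoxia and 4.71, 4.63 and 4.67 in hypoxia. Knockout lungs gave 4.23, 4.44 and 4.38, and 4.90, 4.28 and 4.49. The control groups were separate and the knockout groups overlapped. Its mean over all arrays, 4.44, was at percentile 48.8 of all genes. The change in control lungs was 0.49 ± 0.13 (adjusted p = 0.0345), and the call was lost without any 1 of the 3 control hypoxia arrays or without control normoxia 1 or 2, with adjusted p up to 0.11 and changes from 0.46 to 0.51. It was also lost without both arrays high in Ucp1 (0.47, adjusted p = 0.082). In knockout lungs the change was 0.21 ± 0.13 (adjusted p = 0.57), and the difference in response was -0.28 ± 0.19 (adjusted p = 0.71).

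Thbs1 was lowest in the hypoxic knockout lungs, but no comparison of it passed. It was 8.94, 9.11 and 9.37 in control normoxia and 9.45, 9.27 and 9.32 in control hypoxia, 2 groups that overlap. In knockout normoxia it was 9.66, 9.42 and 9.20, and in knockout hypoxia 8.87, 8.74 and 9.07. The hypoxic knockout lungs lay below both the normoxic knockout and the hypoxic control lungs without overlap, which 8.97% and 5.19% of all genes did in this direction. The change with hypoxia was 0.20 ± 0.14 in control (adjusted p = 0.39) and -0.53 ± 0.14 in knockout lungs (adjusted p = 0.11). The interaction was -0.74 ± 0.20, with an unadjusted p of 0.0032 and an adjusted p of 0.57. It lay between -0.85 and -0.62 in the fits that left out 1 array.

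Platelets carry thrombospondin-1, and lungs were perfused to wash out blood. The mean of 5 platelet markers, 0 of which were called in either genotype and 1 of which was called lower over both, ranged from 6.28 to 6.56 in knockout normoxia and from 5.79 to 6.33 in knockout hypoxia, and from 5.94 to 6.77 and 5.87 to 6.64 in the same states of control lungs. The marker called was Ppbp, a platelet chemokine, which fell by 1.02 over both genotypes (adjusted p = 0.0369). Of all genes, 14.7% were called in that comparison. Ppbp changed by -0.91 in control and -1.12 in knockout lungs. It was 8.86, 9.11 and 9.23 in knockout normoxia and 8.69, 7.64 and 7.53 in knockout hypoxia. These did not overlap, which 8.97% of all genes showed in this direction. In control hypoxia Ppbp was 7.78, 8.26 and 9.12, which overlaps the knockout hypoxia values, unlike Thbs1. Pf4, platelet factor 4, changed by 0.02 in control and -0.14 in knockout lungs and was not called. The part of platelets in the Thbs1 values was not tested.

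Thbs3 and Thbs4, thrombospondins that form pentamers and lack the repeats by which thrombospondin-1 acts on TGF-beta, were not called. Thbs3 lay between 7.99 and 8.58 in all 12 arrays, with changes of 0.17 ± 0.14 in control and 0.05 ± 0.14 in knockout lungs (adjusted p = 0.48 and 0.95). The 3 knockout normoxia arrays spanned 8.34 to 8.37 and lay above the control normoxia arrays, which 5.46% of all genes did, with an adjusted p of 0.86. Thbs4 lay between 3.36 and 3.62, at percentile 31.2 of all genes, with changes of -0.03 ± 0.08 and -0.02 ± 0.08 (adjusted p = 0.85 and 0.97). A detection call is not part of the value table, so it is not known whether Thbs4, or Thbs2 in normoxia, was above background.

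Periostin, a matricellular protein of fibroblasts that is induced by TGF-beta in many fibrotic tissues, was not called. In control lungs Postn was 9.57, 10.22 and 9.47 in normoxia and 9.82, 9.52 and 9.60 in hypoxia. In knockout lungs it was 9.64, 9.69 and 9.46, and 9.32, 9.64 and 9.43. The groups overlapped, and control normoxia 2 was the highest array. The change was -0.11 ± 0.17 in control (adjusted p = 0.74; 95% interval -0.49 to 0.27) and -0.13 ± 0.17 in knockout lungs (adjusted p = 0.85; -0.51 to 0.25). Without control normoxia 2 the control change was 0.12 (adjusted p = 0.63).

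Loss of endothelial Nfat5 did not give a called difference in any of the 9 genes. In normoxia 0 were called by limma and 0 had an unadjusted p under 0.05, in hypoxia 0 and 1 (Thbs1), and over both oxygen states 0 and 0. Of all genes, 0.00405%, 0% and 0% were called in these 3 comparisons. Knockout lungs differed from controls by 0.48 ± 0.34 (Tnc) and 0.29 ± 0.14 (Thbs1) in normoxia and by -0.55 ± 0.34 and -0.45 ± 0.14 in hypoxia, with adjusted p-values of 0.70 or above. In Fn1 the 95% intervals were -0.19 to 0.41 in normoxia and -0.42 to 0.18 in hypoxia. The interaction was called in 0 of 9 genes by limma, with 1 at an unadjusted p under 0.05 (Thbs1), where 0.00405% of all genes were called. It was below 0 for 8 of the 9, with a median of -0.21, against a median of 0.00 for all genes (50.2% below 0). Of all genes called higher in control lungs, 92.1% had a smaller change in knockout lungs, as the 4 called genes did. Being called in control lungs favours a large control change, so this share does not show a weaker response in knockout lungs. The 2 hypoxia contrasts share no arrays, and their values for the 4 called genes stand side by side above.

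Within each knockout group 1 array was highest for Fn1, Tnc, Thbs1 and Sparc alike, a pattern seen after the values were known. Knockout normoxia 1 exceeded its group mean by 0.73 for Tnc, 0.24 for Thbs1, 0.13 for Fn1 and 0.06 for Sparc. Knockout hypoxia 4 did so by 0.76, 0.18, 0.29 and 0.09. Both arrays were highest of their groups for these 4 of the 9 genes and for 10.3% of all genes. Of the other 5, none had its single highest value in both arrays. Thbs3 was highest of its group in knockout hypoxia 4 (0.11) and tied with replicate 4 for highest in knockout normoxia 1 (0.01). Tnxb was highest in knockout hypoxia 4 (0.26) but below its group mean in knockout normoxia 1 (-0.07). Thbs2 was lowest of its group in knockout normoxia 1 (-0.12) and at -0.06 in knockout hypoxia 4. Postn was at 0.04 and -0.03 in the same arrays. In control groups no single array was highest for all 4 of these genes.

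**Figure D3:**
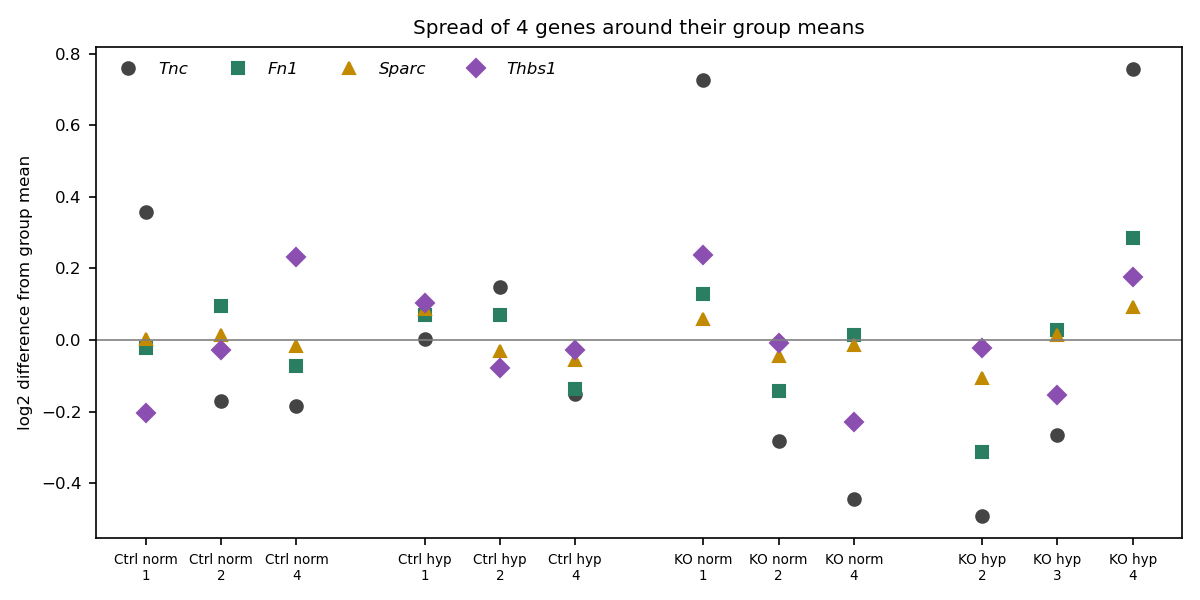
Log2 difference of each array from the mean of its group for Tnc, Fn1, Sparc and Thbs1, with replicate numbers as labelled. Knockout normoxia 1 and knockout hypoxia 4 are above their group mean for all 4 genes, with Tnc at 0.73 and 0.76.

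Some markers of matrix-making cells also rose with hypoxia. Of 10 fibroblast markers, 5 rose with hypoxia in control lungs and 1 in knockout lungs, with median changes of 0.35 and 0.20. In these comparisons 5.36% and 0.64% of all genes were called higher. Their mean ranged from 8.64 to 8.73 in control normoxia and from 9.05 to 9.10 in control hypoxia, and from 8.76 to 8.94 and 8.97 to 9.03 in the same states of knockout lungs. Not all moved one way: the collagen gene Col1a1 changed by 0.91 and 0.44 in control and knockout lungs, Pdgfra, a receptor that marks fibroblasts, by 0.00 and 0.07, and decorin (Dcn) by -0.38 and -0.52. Of 7 smooth muscle markers 4 passed in control and 0 in knockout lungs, with median changes of 0.55 and 0.04. Among them Acta2 was 10.54, 10.36 and 10.62 in control normoxia and 10.61, 10.64 and 10.82 in control hypoxia, so these groups overlapped. Of 6 pericyte markers 3 and 0 passed, with median changes of 0.48 and 0.46. Over both genotypes 4 passed, where 7.27% of all genes were called higher. A set of 5 macrophage markers with Trem2 averaged 6.29 to 6.62 in all normoxic and 6.93 to 8.02 in all hypoxic arrays. Of the 5, 4 rose in control lungs, 3 in knockout lungs and 4 over both genotypes. Cardiac muscle markers moved the other way. Over both genotypes 2 of 8, Nppa and Myl7, fell, where 14.7% of all genes were called in either direction. The median change of the 8 cardiac markers was -0.20 in control and -1.32 in knockout lungs. Their mean reached 9.44 and 8.32 in knockout normoxia 2 and 4, against 6.63 to 8.06 on the other arrays. In whole lung, more cells of a type and more RNA per cell cannot be told apart, and the part of these cells in the changes was not tested.

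RNAs that stay in the nucleus moved with hypoxia as well. The mean of 10 such RNAs ranged from 6.55 to 6.99 in control normoxia and from 5.86 to 6.13 in control hypoxia, and from 6.27 to 6.73 and 5.99 to 6.39 in knockout lungs. With that mean as a covariate the control changes were 1.73 ± 0.66 for Tnc, 1.02 ± 0.26 for Fn1, 0.49 ± 0.15 for Sparc and 0.26 ± 0.24 for Thbs2. None of the 9 genes was called in that fit, in which 2 genes of all were called in control lungs, but the changes of Tnc, Fn1 and Sparc were about as large as without it. Postn went from -0.11 to 0.52 ± 0.25 (adjusted p = 0.73).

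Other matricellular genes also changed with hypoxia, some of them downward. Of 20 such genes 8 rose and 0 fell in control lungs, 1 rose in knockout lungs, and 8 rose and 2 fell over both genotypes. Of all genes, 5.36%, 0.64% and 7.27% were called higher in these comparisons. The median change in control was 0.25, against 0.01 for all genes. Ccn4, a WNT-inducible member of the CCN family, rose by 1.11 ± 0.17 in control (adjusted p = 0.00534) and was 0.28 ± 0.17 in knockout lungs (adjusted p = 0.56). It averaged 4.10 in control normoxia, below the median of all values (4.55), and whether that was above background is not known. Fstl1, a secreted SPARC-related glycoprotein, rose by 0.87 ± 0.13 (adjusted p = 0.00479) and was 0.16 ± 0.13 in knockout lungs (adjusted p = 0.68). Ccn2, connective tissue growth factor, rose by 0.78 ± 0.15 in control (adjusted p = 0.0116) and was 0.58 ± 0.15 in knockout lungs (adjusted p = 0.11). The interaction was called for none of these 3, with adjusted p-values of 0.57, 0.57 and 0.83.

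Ccn5, a CCN member known to restrain smooth muscle growth, rose in both genotypes, by 0.88 ± 0.15 in control (adjusted p = 0.00763) and 0.89 ± 0.15 in knockout lungs (adjusted p = 0.0214), and the difference was 0.00 ± 0.22 (adjusted p = 1.00). With the nuclear RNA covariate 0 of the 20 genes were called in control lungs, and Ccn5 there was 0.37 (adjusted p = 0.83). In the same fit the control changes of Ccn4, Fstl1 and Ccn2 were 1.37, 0.86 and 0.83. In knockout lungs Ccn5 still passed with that covariate (0.73, adjusted p = 0.0472). Without both arrays high in Ucp1, 4 of the 20 rose and 1 fell in control lungs, and Ccn5 no longer passed in knockout lungs (0.72, adjusted p = 0.080). The knockout call of Ccn5 was also lost with the replicate block (adjusted p = 0.13), the Y-linked covariate (0.053) and the compared groups alone (0.057). The 2 genes that fell over both genotypes, named after their values were seen, were Ccn1 and Edil3. Ccn1, an angiogenic CCN protein and close relative of Ccn2, averaged 10.09 ± 0.10 in normoxia and 9.52 ± 0.22 in hypoxia in control lungs, and 10.16 ± 0.42 and 9.26 ± 0.34 in knockout lungs (SD, n = 3). It fell by 0.74 on the log2 scale (adjusted p = 0.00876). Edil3, an endothelial integrin ligand, fell by 0.47 (adjusted p = 0.0174).

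**Figure D4:**
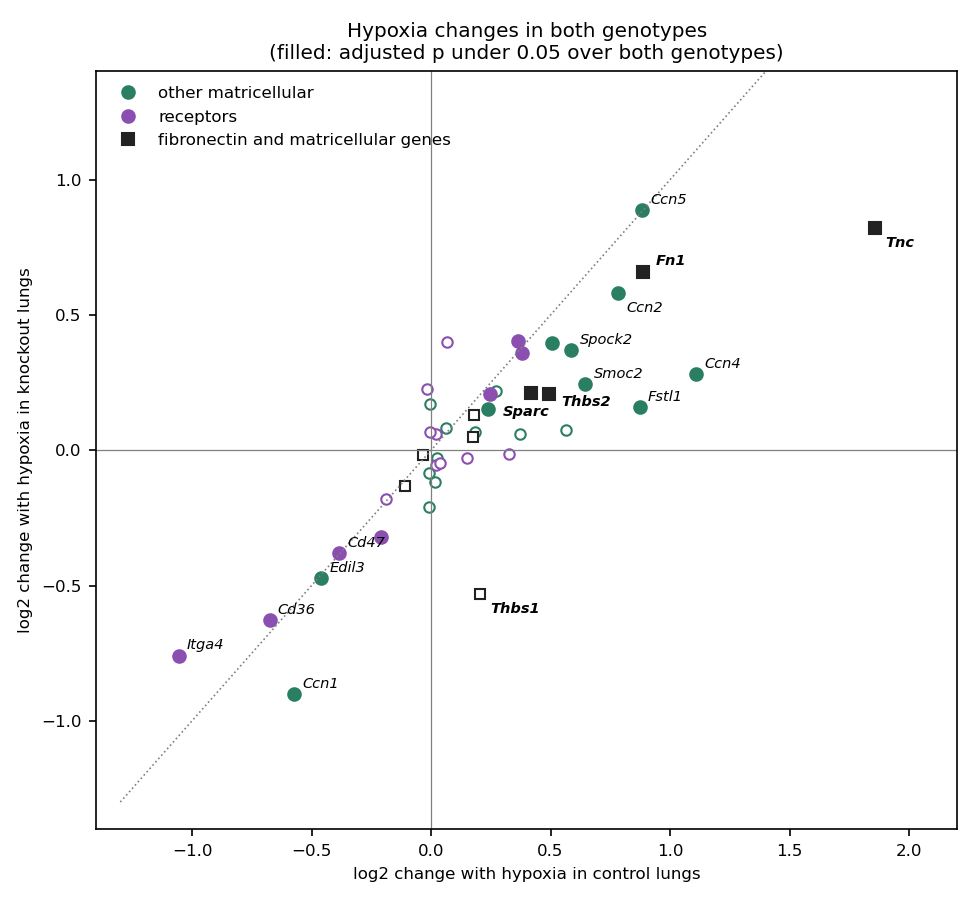
Log2 change with hypoxia in control lungs (horizontal) against that in knockout lungs (vertical) for the 9 genes (squares), 20 other matricellular genes and 16 receptors (circles); filled symbols had an adjusted p under 0.05 over both genotypes, and the dotted line marks equal change. Tnc, Ccn4 and Fstl1 lie well to the right of the line, Ccn5 lies on it, and the receptors Cd36, Cd47 and Itga4 lie in the lower left.

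Receptors of these proteins did not rise as a group. Of 16, 1 rose and 3 fell in control lungs, 0 rose and 3 fell in knockout lungs, and 3 rose and 4 fell over both genotypes, with a median of 0.02 in control. Of all genes, 11.5%, 1.14% and 14.7% were called in these comparisons. The falls in both genotypes included both named receptors of thrombospondin-1. Cd36, a scavenger receptor of capillary endothelium and macrophages, was 12.0, 11.93 and 11.76 in control normoxia and 11.34, 11.15 and 11.18 in control hypoxia, and fell by 0.68 (adjusted p = 0.00409). In knockout lungs it was 11.67, 11.80 and 11.63 in normoxia and 11.05, 11.15 and 11.02 in hypoxia, and fell by 0.63 (adjusted p = 0.00847). Hypoxic and normoxic lungs did not overlap in either genotype.

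Cd47, a broadly expressed surface protein, fell by 0.39 in control (adjusted p = 0.0103) and by 0.38 in knockout lungs (adjusted p = 0.0366). Itga4, the integrin chain that binds an alternatively spliced segment of fibronectin and is carried by many leukocytes, fell by 1.06 (adjusted p = 0.00444) and by 0.76 (adjusted p = 0.0363). Sdc1, the heparan sulphate proteoglycan syndecan-1, rose by 0.38 in control lungs (adjusted p = 0.032), was 0.36 in knockout lungs (adjusted p = 0.13) and rose over both genotypes (0.37, adjusted p = 0.00644). The control call was lost with the replicate block (adjusted p = 0.059), the Y-linked covariate (0.071), the compared groups alone (0.071) and the nuclear RNA covariate (0.09, adjusted p = 0.97). Without both arrays high in Ucp1 the 3 falls still passed in control lungs, and in knockout lungs 0 of 16 receptors passed, with Cd36 at -0.58 (adjusted p = 0.058). With the nuclear RNA mean as a covariate Cd36 was -0.42 in control lungs, Cd47 -0.25 and Itga4 -0.66, and none passed there. None of the 3 falls passed in knockout lungs with the replicate block (adjusted p 0.069 to 0.17). With the Y-linked covariate Cd47 (0.074) and Itga4 (0.077) did not pass in knockout lungs, and Cd36 did (0.0192). With the compared groups alone Cd47 passed in neither genotype (0.058 in control, 0.084 in knockout lungs).

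Of 14 genes known to induce matricellular genes, only Prrx1, a transcription factor of mesenchymal cells, passed in control lungs (0.53 ± 0.16, adjusted p = 0.0475), and 0 passed in knockout lungs. Of all genes, 11.5% were called and 5.36% were called higher in control lungs, and 1.14% were called in knockout lungs. Prrx1 no longer passed with the Y-linked covariate, where 0 of the 14 did, and 2 rose without both arrays high in Ucp1. Of 12 genes whose products process or modify these proteins, 5 rose and 0 fell in control lungs, and 0 passed in knockout lungs. The control count was 5 without both arrays high in Ucp1, 4 with the Y-linked covariate and 0 with the nuclear RNA covariate. Adamts1, a protease that cuts thrombospondins, rose by 0.54 ± 0.11 (adjusted p = 0.0141), and Tgm2, the transglutaminase that crosslinks fibronectin, rose by 0.43 ± 0.09 (adjusted p = 0.0166). Mmp3, a protease of fibronectin and tenascin-C, rose by 0.55 ± 0.12 (adjusted p = 0.0172), and Fam20c, a kinase of secreted proteins, rose by 0.52 ± 0.12 (adjusted p = 0.018).

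The genes whose profiles lay nearest to each called gene were found by the root mean square difference of mean-centred log2 values over the 12 arrays. Nearest to Tnc were Mmp2, a gelatinase (0.31), Clec11a, a secreted lectin (0.33), and Ptger1, a prostaglandin receptor (0.38), against a median of 0.83 over 18569 genes. Nearest to Fn1 were Nrtn, the growth factor neurturin (0.12), Sod3, the extracellular superoxide dismutase (0.13), and Mamdc2, a proteoglycan (0.14), against a median of 0.44. For Sparc they were Cpt1c (0.06), Dag1, a matrix receptor (0.07), and Bgn, the small proteoglycan biglycan (0.07), against a median of 0.23. For Thbs2 they were Pex19, Pnpla2 and C1rl, at 0.10, 0.11 and 0.11 against a median of 0.27. These distances describe the same 12 arrays from which the changes were estimated.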

How the data were processed

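RNA of whole lung was measured on Affymetrix arrays, 12 in 4 groups of 3. Per the submitters' processing notes the deposited log2 values were made with RMA, with no version, annotation or filter stated. The 25428 probe sets had identical sorted values on all arrays, from 2.41 to 13.7, which removes any change in total RNA per cell. The number of arrays limits the precision. The platform annotation paired 24705 probe sets with 1 symbol, 723 with none and 0 with several, and the probe set with the highest mean was kept per symbol (24704 genes).

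Groups and replicate numbers came from sample titles. The design text gives 4 mice per group, and 3 arrays per group were analysed here. The labels do not say that each array was 1 mouse, so p-values measure only the spread between these arrays. Those for hypoxia do not account for the authors' removal of lungs with a weak expression response to hypoxia. Each gene was fitted with limma 3.58.1 (R 4.3.3) as 4 group means with 8 residual and 3.61 prior degrees of freedom and no trend, and 7 contrasts were tested two-sided. The fit was tested on simulated data. All 9 genes were named whatever their values. Up to 4 called members per context list with the smallest adjusted p in control lungs were named, and the 3 nearest profiles per gene called over both genotypes, without placeholder symbols. The genes, lists and alternatives were chosen with earlier results of these data known.

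Alternatives were the replicate number as a block, leaving out each array or both arrays high in Ucp1, an intensity trend, a filter on low means, cyclic loess, array weights, the compared groups alone, the probe set of highest variance, and the nuclear RNA or Y-linked mean as a covariate. Promoter sequences and names came from RefSeq tables of GRCm38.p6.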

Additional observations from a re-analysis of the deposited data

How the results depend on the processing

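The number of the 9 genes called was 3 or 4 in control lungs and over both genotypes under every setting tried except 1. With the nuclear RNA covariate it was 0 in both, where 2 and 50 genes of all were called. Leaving out 1 array gave 3 to 4 genes in each of these comparisons (808 to 3920 and 2254 to 4426 of all genes). The gene lost was Thbs2 in each case of 3. In knockout lungs the single call, Fn1, gave 0 with the replicate block (40 genes of all against 282), without both arrays high in Ucp1 (51), with the nuclear RNA (147) or Y-linked covariate (166) and with the compared groups alone (197). It was 0 to 1 when 1 array was left out, among 71 to 258 of all genes, and 508 genes of all were called with array weights. Replicate numbers were not used to pair the arrays in the main fit. Deviations from group means correlated between -0.25 and 0.28 in the 15 same-numbered pairs, and 4 exceeded 0.1. Those pairs lay between 0.01 and 0.28 within an oxygen state and between -0.25 and 0.18 across the states. Pairing within a state was therefore not excluded. The block left 4 genes called in the other 2 hypoxia comparisons and changed no other call of the 9 genes. The interaction and the genotype comparisons gave 0 under every setting.

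Over 32 changes reported for single genes and 688 alternative values, 640 kept direction and call, 37 kept direction and lost the call, and 11 changed sign, none of them called. Sign changes came from leaving out 1 array in Tnxb (control -0.0003 to 0.31, knockout -0.0007 to 0.27), Thbs3 (knockout -0.0049 to 0.13), Thbs4 (control -0.0757 to 0.0203, knockout -0.059 to 0.0418) and Postn (control -0.25 to 0.12). With the nuclear RNA covariate they came in Thbs4 in control (0.0021) and Postn in control (0.52) and knockout lungs (0.0533). The cause was not tested. The context list counts under 3 settings, the 2 Ucp1 arrays left out and the 2 covariates, were added after seeing the data.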
